A study of Mus musculus with 32 samples.

Results

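Morf4l2 is an X-linked mouse gene whose RNA from the inactive X chromosome (Xi) ranged from a listed 0 to 37.6% of its total in XEN cells, stem cells of the extraembryonic endoderm. It was taken by name as 1 of 1006 genes listed in 4 deposited tables of X-linked expression, and it has a value in all 12 groups. It was chosen by its measured Xi levels and Xi shares in these groups, so those values are given as a description and no test is attached to them. The cells carry one X of each parent strain of the cross 129S1/SvImj X JF1/Ms, and sequence differences between the strains let the authors split expression between the active X (Xa) and Xi. Values are FPKM, fragments scaled by transcript length and by sequencing total. Whether the replicates are separate cultures is not stated, and how many allele-informative reads stand behind a value is unknown.

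The groups, all made of XEN cells, are 3 WT samples, 4 XistpA samples, 2 XRR_KO samples from 2 clones and 3 XRRa_KO samples, which share the first table. The second table holds XRRb_XaKO and XRRb_XiKO, and likewise XRRc_XaKO and XRRc_XiKO, with 2 samples per group. The third holds cells with a Rad21 degron, 4 samples with DMSO and 4 with dTAG, each from 2 clones. The fourth holds cells with a Ctcf degron, 2 samples with DMSO and 2 with dTAG for 48 h. A degron is a tag through which dTAG, a small molecule, triggers degradation of the tagged protein, and both members of each degron pair carry it. Rad21 is a cohesin subunit and Ctcf a DNA-binding protein of chromosome architecture. The labels do not explain XRR, XistpA or the parts a to c, and the numbers of clones behind the other groups are not given. Each group was deposited as 1 merged column per allele, so no value below has a replicate check, SD or p-value. Defining markers of extraembryonic endoderm lie on other chromosomes and were not analysed here.

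In female mammals 1 X chromosome of each cell is silenced by Xist, a long noncoding RNA that coats it, and genes that stay expressed from it are called escape genes. Morf4l2 encodes MRGX, a small protein with an MRG domain found in histone acetyltransferase complexes of the NuA4 (TIP60) type and also in histone deacetylase complexes. Its autosomal paralogue Morf4l1 encodes MRG15, which also has a chromodomain that binds methylated histone tails. Msl3, another X-linked gene with an MRG domain, had values only in the Ctcf table, at 4.81 and 5.91 FPKM on Xa with DMSO and dTAG and a listed 0 on Xi in both.

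A stretch of the coding sequence is shown beside a copy because the copy bears on how the gene can be counted. The GENCODE M21 transcript used, of 1996 bases, holds a coding sequence of 867 bases for 288 residues. AC165327.2, a processed pseudogene on chromosome 19, matched 795 of those coding bases (91.7%) without a gap and differed at 12 of them (98.5% identical). The longest run without a difference was 217 bases. The remaining 1201 bases of the transcript had no match in that copy. The stretches below cover coding bases 158 to 277 of Morf4l2 and the matching bases of the pseudogene, 5′ to 3′, and were picked as the 120 bases with the most differences. Capitals mark the 7 positions that differ.

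Morf4l2: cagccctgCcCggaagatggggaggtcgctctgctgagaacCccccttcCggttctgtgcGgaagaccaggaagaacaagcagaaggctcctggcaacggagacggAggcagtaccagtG

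AC165327.2: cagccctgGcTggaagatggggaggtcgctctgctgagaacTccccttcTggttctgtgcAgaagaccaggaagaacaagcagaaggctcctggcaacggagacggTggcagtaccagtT

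Reads within an identical run cannot be told apart by sequence alone, so part of the signal given to Morf4l2 is uncertain. The sources used here do not say how the authors handled such reads. Gm11865 on chromosome 4 and Gm11581 on chromosome 1, also processed pseudogenes, were less alike (88.7% and 82.6% identity).

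RefSeq places 4 transcription starts at Morf4l2. The windows from 250 bases before to 50 after them held 12, 25, 13 and 10 CpG dinucleotides, from the most upstream start on, against a median of 7 over 32851 such windows of the genome (quartiles 3 and 20) and of 7 over 1223 on the X. The most upstream promoter and the one with the most CpG are shown. Both sequences are from RefSeq, GRCm38.p6, minus strand, with CpG in capitals. The upstream one covers chrX:136743687-136743936 and the more CpG-rich one chrX:136741662-136741859, which stops before a longer GENCODE transcript begins. The authors' build was mm9, and none of their data were read at these positions.

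Morf4l2 upstream start: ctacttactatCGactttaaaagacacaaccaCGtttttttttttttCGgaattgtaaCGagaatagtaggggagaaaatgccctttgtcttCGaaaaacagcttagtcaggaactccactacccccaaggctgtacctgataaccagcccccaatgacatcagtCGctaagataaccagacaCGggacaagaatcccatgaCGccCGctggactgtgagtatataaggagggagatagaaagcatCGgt

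Morf4l2 CpG-rich start: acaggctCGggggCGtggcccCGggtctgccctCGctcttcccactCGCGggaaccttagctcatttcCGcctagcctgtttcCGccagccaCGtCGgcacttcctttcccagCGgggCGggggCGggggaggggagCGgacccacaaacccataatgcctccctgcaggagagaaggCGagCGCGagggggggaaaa

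The letters ATGGCG, the core of the site bound by the transcription factor YY1, were searched on both strands (ATGGCG or CGCCAT). They stood once on the reverse strand in the window of the third start, once on the forward strand in that of the fourth, and not in the other windows. The windows of these starts overlap. Of all windows 8.93% held them, and of X windows 8.91%. A match is a description of the letters only. BC065397, a gene on the opposite strand, overlaps the upstream end of Morf4l2. The libraries kept no strand, per the labels' Smart-seq2 protocol, so reads in the overlap cannot be told apart. BC065397 had at most 0.633 FPKM on Xi (Rad21 with dTAG).

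On Xa Morf4l2 was among the most abundant X-linked transcripts in every group. In the first table it had 303 FPKM in WT, 279 FPKM in XistpA, 208 FPKM in XRR_KO and 312 FPKM in XRRa_KO. The second table had 443 FPKM in XRRb_XaKO, 373 FPKM in XRRb_XiKO, 372 FPKM in XRRc_XaKO and 305 FPKM in XRRc_XiKO. Its Xa rank among 247 to 277 tested genes, those averaging 1 FPKM or more over a table, lay between 8 and 18. With the Rad21 degron it had 176 FPKM with DMSO and 100.2 FPKM with dTAG. With the Ctcf degron it had 59.2 FPKM with DMSO and 170 FPKM with dTAG, which made Ctcf with DMSO its lowest rank (18 of 277). Tables were made separately, so levels in FPKM are set side by side only within a table.

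On Xi, within the first table, the same gene was low in WT and high in XistpA and XRR_KO. It had 4.46 FPKM in WT, 146 FPKM in XistpA, 125 FPKM in XRR_KO and 26.3 FPKM in XRRa_KO. In the second table it had 2.52 FPKM in XRRb_XaKO, 15.9 FPKM in XRRb_XiKO, 12.9 FPKM in XRRc_XaKO and 4.77 FPKM in XRRc_XiKO. It had 5.86 FPKM in Rad21 with DMSO and was listed at 0 in Rad21 with dTAG and in both Ctcf groups. A listed 0 in a table without counts can be a failed estimate.

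The Xi share, Xi as a percentage of Xa plus Xi, is set side by side over all 12 groups. How finely a low share is resolved may differ between tables and is not known. It was highest in XRR_KO (37.6%) and XistpA (34.4%), which lay close together, and then dropped to 7.79% in XRRa_KO. Below that came XRRb_XiKO (4.08%), XRRc_XaKO (3.35%), Rad21 with DMSO (3.23%), XRRc_XiKO (1.54%), WT (1.45%) and XRRb_XaKO (0.565%), followed by the 3 groups listed at 0. The 5 groups named WT, XaKO or DMSO ran from 0 to 3.35% with a median of 1.45%. XRRa_KO, XRR_KO and XistpA lay clearly above that range and XRRb_XiKO just above it. With no replicate values, neighbours in this order cannot be separated from their spread.

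**Figure D1:**
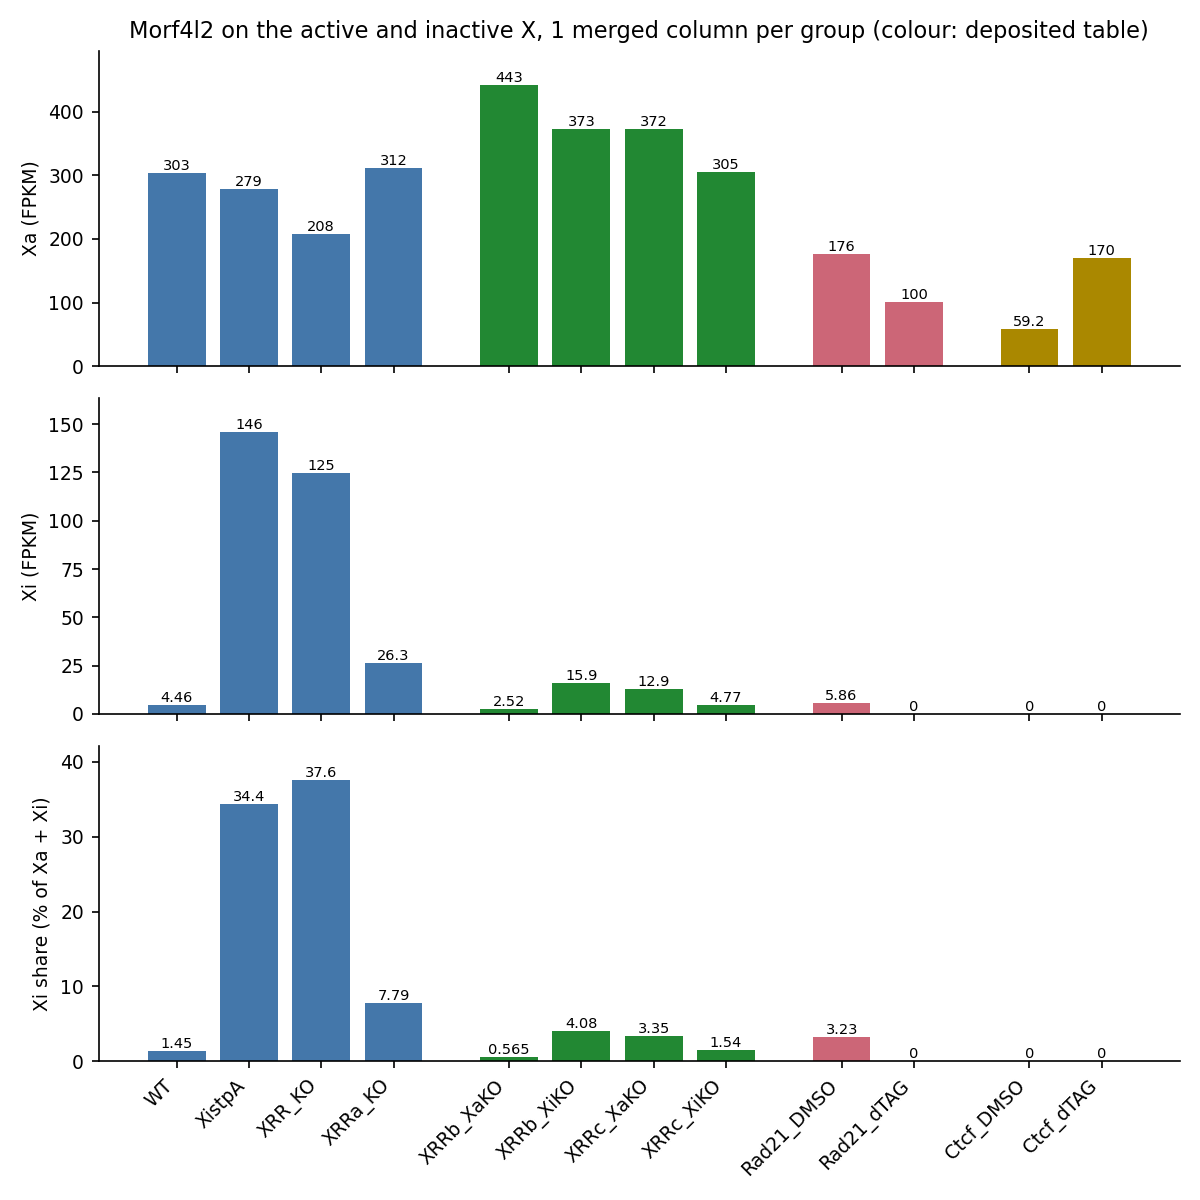
Morf4l2 on Xa (top, FPKM), on Xi (middle, FPKM) and as Xi share (bottom, percent) in the 12 groups, 1 bar per merged column with no error bar, coloured by deposited table. Within the first table Xi bars reach 146 FPKM in XistpA and 125 FPKM in XRR_KO, beside 26.3 FPKM in XRRa_KO. Xa bars of that table span 208 to 312 FPKM.

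Some of these shares come from exact ratios of whole numbers up to 100. The ratio of Xi to Xa equalled 1 to 68 in WT, 6 to 71 in XRRa_KO and 1 to 30 in Rad21 with DMSO, each within a relative 5e-06. No ratio of whole numbers up to 100 was found in the other 6 groups with an Xi value. Such ratios were common in the Rad21 table, for 75% and 79.6% of genes with both alleles above 0 with DMSO and dTAG, and less so in WT (15.6%) and XRRa_KO (18.9%). They do not give the number of reads. Whether 3.23% and a listed 0 in the Rad21 groups differ beyond counting error cannot be told apart without the reads.

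XistpA against WT gave one of the largest differences of Morf4l2 on Xi. Xist had 15.5 FPKM on Xi in WT and was listed at 0 on Xi in XistpA. The change of Morf4l2 on Xi was 4.88 on the log2(FPKM + 0.5) scale, a 32.7-fold difference in FPKM, and its share gained 32.9 percentage points. A change of 1 or more on that scale is called a rise or fall here. On Xi 33 of 270 tested genes rose (12.2%) and 4 fell (1.48%), and the change of Morf4l2 ranked 6 from the top. On Xa its change was -0.12, against a median of -0.02 over all tested genes, where 3 genes rose (1.11%) and 9 fell (3.33%). The sum of both alleles went from 308 to 425 FPKM. The Xi gain of Morf4l2 equalled 10.8% of the net difference in summed Xi FPKM over tested genes without Xist and Tsix.

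In XRR_KO, with Xist at 1.18 FPKM on Xi, Morf4l2 rose on Xi by 4.66, a 28.0-fold difference, and its share gained 36.1 points. Its change ranked 5 of 270, and 43 tested genes rose (15.9%) and 3 fell (1.11%). On Xa it changed by -0.55, below the median change of -0.19 and short of the size rule, where 3 genes rose (1.11%) and 10 fell (3.7%). The summed level of both alleles was 333 FPKM, beside 308 FPKM in WT. The Xi gain of Morf4l2 equalled 13.9% of the net difference in summed Xi FPKM. Between XistpA and XRR_KO its Xi level differed by only -0.22 (XRR_KO minus XistpA), and its Xa level by -0.42.

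XRRa_KO had an intermediate level. With Xist at 7.86 FPKM on Xi, Morf4l2 rose on Xi by 2.44 against WT, 5.90-fold, and its share gained 6.34 points. It ranked 6 of 270, where 16 genes rose (5.93%) and 3 fell (1.11%). Its Xi gain equalled 2.28% of the net difference in summed Xi FPKM. Its Xa level hardly differed (0.04, median 0.02), and 1 gene rose and 1 fell there (0.37% each). XRR_KO exceeded XRRa_KO on Xi by 2.22, 4.74-fold, and 34 of 270 tested genes rose (12.6%) and 5 fell (1.85%) in that comparison. On Xa it differed by -0.58, where 4 genes rose (1.48%) and 11 fell (4.07%). The summed Xi FPKM differed by -91.9 (XRR_KO minus XRRa_KO), while that of Morf4l2 differed by 98.6. The 3 comparisons with WT share the WT column, so their changes are not independent. In that column Xi to Xa of Morf4l2 was 1 to 68, and the number of reads behind it is unknown.

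**Figure D2:**
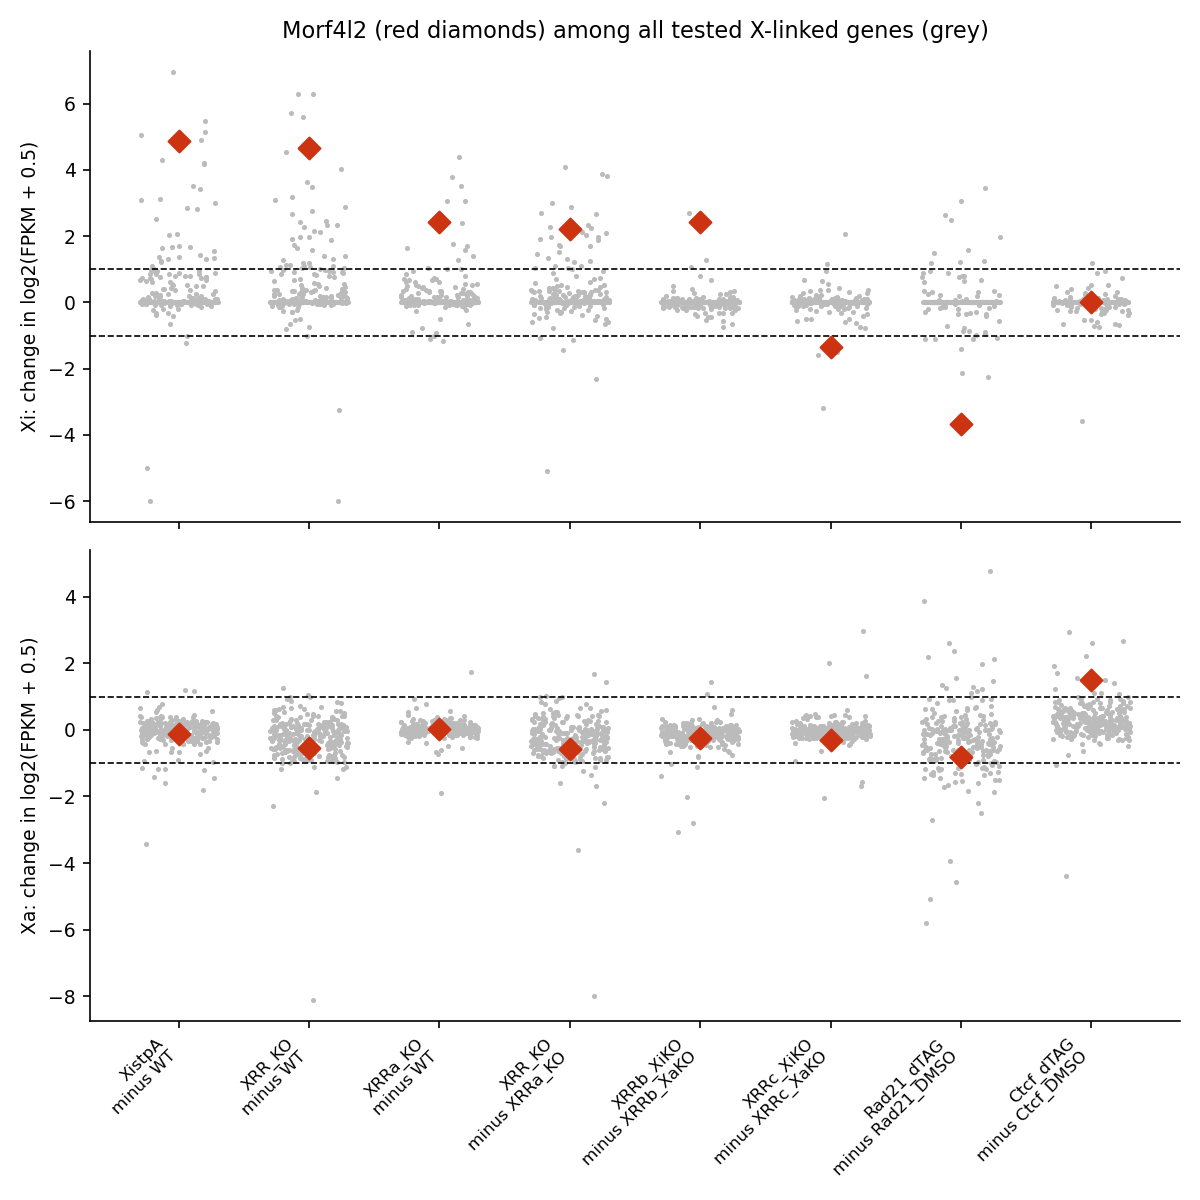
Changes in log2(FPKM + 0.5) on Xi (top) and Xa (bottom) in 8 comparisons, with Morf4l2 as red diamonds, other tested genes as grey points and the size rule of 1 as dashed lines. Morf4l2 lies near the upper end on Xi in the 3 comparisons with WT (4.88, 4.66 and 2.44), and on Xa it passes the size rule only with Ctcf dTAG (1.51).

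The lines named XRRb and XRRc gave opposite differences on Xi. In XRRb, XiKO exceeded XaKO by 2.44 (6.30-fold), ranked 3 of 261, where 5 genes rose (1.92%) and 0 fell. In XRRc, XiKO was below XaKO by a change of -1.35 (0.370-fold), ranked 4 from the lowest of 261, where 4 genes fell (1.53%) and 2 rose (0.766%). The shares moved by 3.51 and -1.81 points. The XaKO columns themselves differed by a similar size: XRRc_XaKO stood 2.15 above XRRb_XaKO on the same scale. XRRb_XiKO and XRRc_XaKO differed by only -0.29 (XRRc_XaKO minus XRRb_XiKO). The 4 columns thus formed a higher and a lower pair that did not follow the names XaKO and XiKO. On Xa neither change passed the size rule. In XRRb it was -0.25 (median -0.09), ranked 66 from the lowest, where 2 genes rose (0.766%) and 6 fell (2.3%). In XRRc it was -0.29 (median -0.05), ranked 13 from the lowest of 261, where 3 rose and 3 fell (1.15% each).

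Levels of Xist on Xi stood in the opposite order to those of Morf4l2 in both tables of 4 groups, a relation looked at after the values were seen. In the first table Xist fell from 15.5 FPKM in WT over 7.86 FPKM in XRRa_KO and 1.18 FPKM in XRR_KO to a listed 0 in XistpA, as Morf4l2 went from 4.46 to 146 FPKM. In the second table Xist had 10.9 FPKM in XRRb_XaKO, 9.74 FPKM in XRRc_XiKO, 8.35 FPKM in XRRc_XaKO and 6.72 FPKM in XRRb_XiKO, where Morf4l2 had its lowest to highest Xi values. Of 64 tested genes above 0 on Xi in every column of the first table, 21 had this opposite order (32.8%). In the second, 1 of 53 had it, Morf4l2, the gene in which the order was first seen. Over 4 columns a given order can arise by chance in as many of 53 genes. The count therefore does not show a relation particular to Morf4l2. By Xi share in place of FPKM the order held for Morf4l2 in the second table, where 3 of 53 genes had it, and not in the first, where XRR_KO exceeded XistpA. With 4 columns per table no test was made, and the part of Xist in these values was not tested.

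With dTAG, Morf4l2 was listed at 0 on Xi in both degron lines. In the Rad21 groups Xi went from 5.86 FPKM with DMSO to a listed 0 with dTAG (change -3.67), the lowest change of 247, where 8 genes fell (3.24%) and 10 rose (4.05%). That size rests on the pseudocount, -5.90 at a pseudocount of 0.1. On Xa the change was -0.81, not past the size rule, beside a median of -0.26 over all tested genes, of which 37 fell (15%) and 16 rose (6.48%). In the Ctcf groups Xi was listed at 0 with both treatments, and 1 tested gene rose and 1 fell on Xi (0.361% each). On Xa Morf4l2 rose with dTAG by 1.51 (2.87-fold), ranked 8 of 277. There 15 genes rose on Xa (5.42%) and 2 fell (0.722%), and the median change was 0.23. Since the headers of the Ctcf table give only the treatment, its columns were assigned by elimination.

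Genes with the most similar Xi share over the 12 groups were named by Pearson correlation among 51 other genes tested in all tables that had a share of 5% or more in at least 2 groups. They were Zc4h2 (r = 0.99), a zinc finger gene, Stard8 (0.98), which encodes a protein with a START domain, Eda2r (0.98), a receptor of the TNF receptor family, Atg4a (0.98), an autophagy protease, and Cited1 (0.98), a transcriptional coregulator. The groups share tables. This ranking uses the Xi shares by which Morf4l2 was chosen, so a high r is a description and no support. Zc4h2 and Stard8 met the 5% rule only through XistpA and XRR_KO, where Morf4l2 was also high. By Spearman correlation only Cited1 stayed among the first 5. Without XistpA and XRR_KO, the 2 groups with high shares, r was 0.79, 0.80, 0.59, 0.79 and 0.82. For Zc4h2, Stard8 and Atg4a these values rest mainly on XRRa_KO. There the shares were 1.33%, 3.27% and 12.1%, beside at most 0.408% in any of the remaining groups. Zc4h2 was listed at 0 on Xi in 9 groups, and had shares of 38.5% in XistpA, 38.8% in XRR_KO and 1.33% in XRRa_KO. Eda2r reached 42.5% in XistpA, 45.3% in XRR_KO and 13.4% in XRRa_KO, and unlike Morf4l2 had 6.13% with Rad21 dTAG. Cited1 stayed between 1.69% and 11.2% in the 9 groups other than XistpA (47.9%), XRR_KO (45.3%) and XRRa_KO (19.4%). Atg4a also has a near-identical copy, Atg4a-ps, and the other 4 had none at 95% identity over 50% of a transcript. AC165327.2 met that rule on another Morf4l2 transcript, as it matched only 39.8% of the 1996-base one described above. Of their 8 RefSeq promoter windows none held ATGGCG, and CpG counts ran from 3 to 32.

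**Figure D3:**
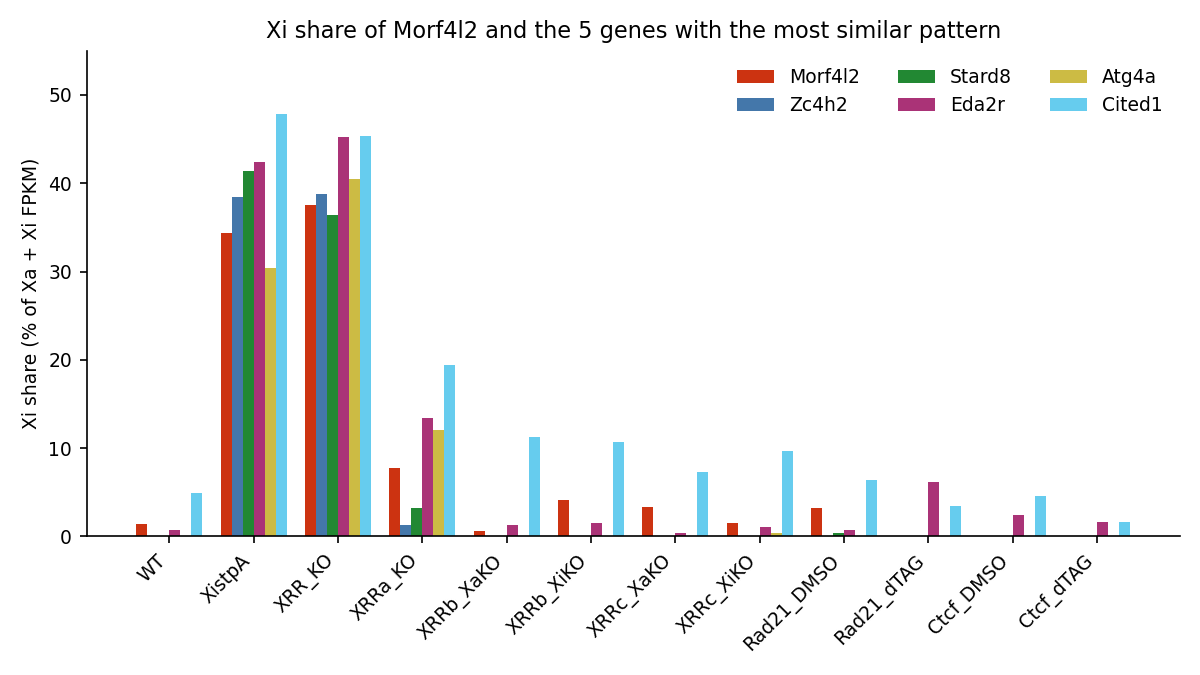
Xi share (percent of Xa plus Xi FPKM) of Morf4l2 and the 5 genes with the highest correlation to it, 1 bar per gene in each of the 12 groups, without error bars. All 6 genes stand at 30.4% or more in XistpA and XRR_KO, and Cited1 alone exceeds 10% in XRRb_XaKO (11.2%).

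Neighbouring genes did not share the pattern as a block. In RefSeq gene order, the 5 nearest genes tested in all tables on the proximal side are Ngfrap1, Wbp5, Bex1, Tceal8 and Bex2, of the Bex and Tceal family of small proteins. Ngfrap1, the nearest, had an Xi share of at most 0.311% in any group, Bex1 of 0.315% and Bex2 of 1.17%. Wbp5 had Xi signal in every group, with 26.9% to 53.1%. Tceal8 varied from 0.0347% to 29.5%, and it was at 28.8% in XRRa_KO and 26.7% with Rad21 dTAG, where Morf4l2 had 7.79% and a listed 0. On the distal side the nearest tested gene, the thymosin gene Tmsb15b2, had 29.1% in XRR_KO, 6.69% in XistpA and 4.88% in XRRa_KO. Mum1l1 had 38.7%, 34.9% and 24.97% in the same groups. Fam199x, Trap1a and Rnf128 were listed at 0 on Xi in 11 of 12 groups each. The exception was XRR_KO for all of them, with 0.362%, 1.80% and 9.90%. In XRR_KO 5 of these 10 genes had a share of 5% or more, against 24.8% of all tested genes, and in WT 1 of 10 against 13.7%. XistpA had 4 of 10 against 22.6%, and XRRa_KO 3 of 10 against 17.0%.

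**Figure D4:**
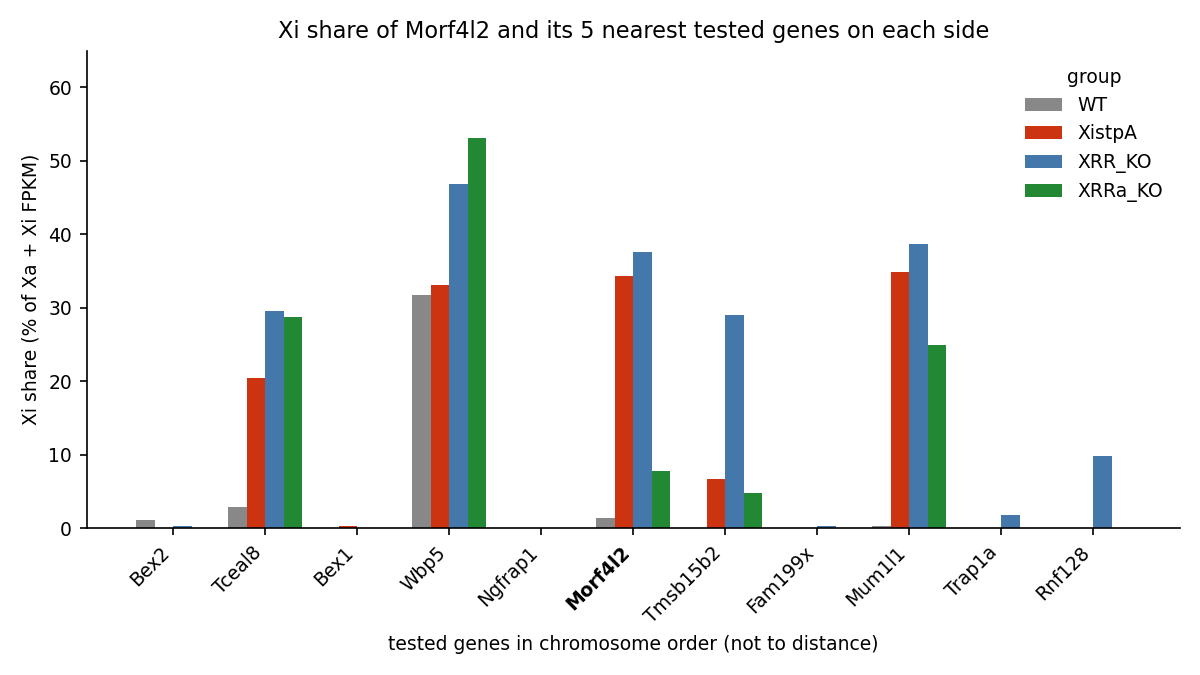
Xi share (percent) of Morf4l2 and the 5 nearest tested genes on each side in chromosome order, in WT, XistpA, XRR_KO and XRRa_KO, without error bars and not to distance. Tceal8, Morf4l2, Tmsb15b2 and Mum1l1 are low in WT (0 to 2.91%) and higher in the other groups. Ngfrap1, next to Morf4l2 on the proximal side, and Fam199x, beyond Tmsb15b2 on the distal side, stay at or below 0.362%.

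BC065397, which overlaps the start of Morf4l2 and was looked at after its values were seen, had shares of 12.1% to 60.0% at low levels. In WT it had 0.338 FPKM on Xa and 0.300 FPKM on Xi (47.0%), where Morf4l2 had 1.45%. In XistpA it had 0.297 and 0.324 FPKM (52.1%). In XRR_KO it had 0.570 and 0.592 FPKM (50.9%), higher than in WT on both alleles, and in XRRa_KO 0.259 and 0.388 FPKM (60.0%).

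A list of 30 other X-linked chromatin and transcription regulators was counted in the same comparisons, and the share of all tested genes stands beside each count. Of the list, 25 genes were tested in the first table. On Xi 1 of 25 rose in XistpA, against 12.2% of all tested genes, 1 of 25 in XRR_KO, against 15.9%, and 0 of 25 in XRRa_KO, against 5.93%. The gene that rose was Kdm5c, a histone demethylase and known escape gene, which went from 0.763 FPKM in WT to 2.76 FPKM in XistpA (1.37) and 2.80 FPKM in XRR_KO (1.39). Kdm5c was also the 1 of 25 that rose in XRR_KO against XRRa_KO (1.05), where 12.6% of all tested genes did. The median Xi change was 0 for the list and for all tested genes in all 8 comparisons. Of 22 tested in the second table, 0 passed the size rule on Xi, where 5 of 261 tested genes passed it in XRRb and 6 in XRRc. With Rad21 dTAG 1 of 23 passed it on Xi, beside 18 of 247 tested genes. This was Ercc6l, a DNA helicase of mitosis, which went from 1.93 to 0.662 FPKM (-1.06). It fell on Xa as well, and its Xi share was 24.4% with DMSO and 27.3% with dTAG. With Ctcf dTAG 0 of 26 did, beside 2 of 277. On Xa, 1 of 25 fell in XistpA, beside 3.33% of all tested genes: Nkrf, a transcriptional repressor, was listed at 0 against 4.92 FPKM in WT. In XRRb 1 of 22 fell, beside 2.3%, Taf9b, a subunit of TFIID-type complexes (-3.05). With Rad21 dTAG 3 of 23 fell on Xa, beside 15% of all tested genes, and 1 rose, beside 6.48%. Those that fell were Hcfc1, a transcriptional coregulator (-1.15), Nono, an RNA-binding protein of paraspeckles (-1.13), and Ercc6l (-1.51), and the deubiquitinase gene Usp11 rose (1.00). These counts show nothing particular to the list.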

How the data were processed

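Polyadenylated RNA of 32 mouse XEN samples (12 groups) went into Smart-seq2 libraries, per the labels' protocols. The 4 deposited tables give the authors' FPKM of each X-linked gene on Xa and on Xi, in 24 columns merged over the samples of a group. The submitters' processing notes list the build mm9 with StringTie 2.1.1, HISAT2 2.2.0 and Trim Galore 0.6.4, and no role for each. How alleles were assigned and the depth are not given in the sources used here, and among Xi values below 1 FPKM no 2 genes shared a ratio between columns of a table (natural log to 4 decimals), so no read step was found.

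Genes averaging 1 FPKM or more over a table were tested, 270, 261, 247 and 277 in the 4 tables. Changes are differences of log2(FPKM + 0.5), and 1 or more was called. With merged columns no test was made. Named genes were Morf4l2, Xist, Msl3, the 5 most similar genes, the 5 nearest tested genes on each side, and list members past the size rule. BC065397 was added once its values were known. Morf4l2 and the lists were chosen with earlier results of these data known. RefSeq (GRCm38.p6) placed 997 of 1006 genes and served for order and promoters only. GENCODE M21 transcripts were aligned with minimap2 2.31. Calculations ran in Python 3.11.15 (pandas 2.3.3, numpy 2.4.6) and plots in matplotlib 3.10.9. Alternatives were other pseudocounts, filters and column scalings, another correlation, and fewer groups.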

Additional observations from a re-analysis of the deposited data

Results flagged for a closer look

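The Xi difference of Morf4l2 between XiKO and XaKO had opposite signs in the lines named XRRb and XRRc. XiKO minus XaKO gave 2.44 in XRRb and -1.35 in XRRc on the log2(FPKM + 0.5) scale, and each value rests on 1 merged column per group. The XaKO references themselves differed by 2.15 (XRRc_XaKO minus XRRb_XaKO). The difference was not tested.

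On Xa, dTAG minus DMSO gave -0.81 with the Rad21 degron and 1.51 with the Ctcf degron. Only the Ctcf change passed the size rule, and the median of all tested genes also lay on opposite sides (-0.26 and 0.23). The difference was not tested, and the tables were made separately.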

How the results depend on the processing

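All 64 recomputed changes of Morf4l2 (8 comparisons, Xa and Xi, 4 alternatives) stayed on the same side of the size rule. Its Xi change ran from 4.75 to 5.00 in XistpA, 4.53 to 4.84 in XRR_KO, 2.32 to 2.53 in XRRa_KO, 2.26 to 2.61 in XRRb and -1.42 to -1.27 in XRRc, and from -5.90 to -2.78 with Rad21 dTAG, where a pseudocount meets a listed 0. Counts of genes past the size rule on Xi depended on the pseudocount. At 0.1 they were 64 in XistpA, 75 in XRR_KO, 39 in XRRa_KO, 65 for XRR_KO against XRRa_KO, 16 in XRRb, 19 in XRRc, 34 with Rad21 dTAG and 12 with Ctcf dTAG, against 37, 46, 19, 39, 5, 6, 18 and 2 at 0.5. At 1 they were 11 in XRRa_KO, 3 in XRRb, 11 with Rad21 dTAG and 1 with Ctcf dTAG. The other 28 of 40 counts, including those with other filters and scaling, were within 1.5 times the reported one. By Spearman correlation 1 of the 5 most similar genes stayed among the first 5 (Cited1, with Mbtps2 first). Without XistpA and XRR_KO, a setting chosen after the data were seen, 2 did (Cited1 and Stard8), and without the degron groups all 5. The neighbours Tmsb15b2 and Mum1l1 entered the first 5 by Spearman correlation (0.85 and 0.82) and without XistpA and XRR_KO (r = 0.86, ranked first, and 0.81). No paired analysis was possible because the deposited columns are merged over replicates, which also prevents leaving out a replicate.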
